A study of Mus musculus with 6 samples.

Results

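A set of 10 genes that mark the epithelium of the choroid plexus were followed through RNA sequencing libraries of mouse dentate neuroepithelium, and for each of them the 2 replicates of SOX11f/+ lay farther apart than any 2 genotype means. This held for the replicates of SOX11f/f in 4 of the 10 genes and for those of wild type in 0 of 10. A replicate gap wider than any gap between genotype means, in at least 1 genotype, was also found for 61.0% of all genes tested. The share of all genes for 1 genotype at a time, such as SOX11f/+, was not computed. The members are Ttr, Folr1, Kcnj13, Clic6, Aqp1, Otx2, Kl, Slc4a5, Enpp2 and Cldn2, taken by symbol from a table of 35274 genes, and each of the 10 matched 1 row. The 6 libraries came from embryonic day 14 mice per the labels. There were 2 of wild type, 2 of SOX11f/+ (1 floxed Sox11 allele, called haplodeficient in the labels) and 2 of SOX11f/f (2 floxed alleles, called homodeficient). The labels give neither a Cre line nor the embryo or litter behind a replicate. A p-value here therefore measures the scatter of these libraries alone, and that scatter may be technical. Levels are TPM, an abundance corrected for transcript length whose total is 1000000 in each library.

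The choroid plexus is a folded epithelium over a vascular core that hangs into the brain ventricles and secretes cerebrospinal fluid. Its cells are joined by tight junctions, carry ion and water transporters on their ventricular face, and release carrier proteins such as transthyretin into the fluid. In the developing telencephalon the choroid plexus grows out from the dorsal midline next to the cortical hem, which itself borders the hippocampal and dentate neuroepithelium. In bulk RNA, fewer cells of a type and less RNA per cell cannot be told apart.

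The labels were checked first. Sox11 was read at 192 and 130 TPM in wild type libraries, 56.1 and 50.1 TPM in SOX11f/+ and 5.23 and 5.06 TPM in SOX11f/f libraries, in the order of the labelled genotypes. All 20 genes of a dentate and granule lineage list were above 0 in each library, with Fabp7, a fatty acid binding protein of radial glia, at 2268 to 3008 TPM, Tubb3, a neuronal tubulin, at 965 to 1728, Neurod6, a neuronal transcription factor, at 290 to 491, and Vim, vimentin, at 240 to 420. All 10 genes of a telencephalic position list were also above 0 in each library. Lhx2 stood at 223 to 304 TPM, Emx2 at 58.8 to 110 and Emx1 at 36.7 to 98.6. Of 17 hindbrain genes, 11 or 12 per library were listed at 0 and none exceeded 1.03 TPM. The 4 most abundant were Egr2, En1, En2 and Gbx2. Of genes read for the stage, the adult globin Hbb-bs stood at 20.6 to 119 TPM and Camk2a, a neuronal kinase, at 121 to 496. Some values go against the labelled stage. Gfap, a filament of mature astrocytes, stood at 268 to 576 TPM. Hbb-y was listed at 0 in all 6 libraries and Hbb-bh1 in 5 of them (both embryonic globins).

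Promoters of members were read from RefSeq windows on GRCm38.p6, each running from 250 bases before a gene start to 50 after it. Windows were searched for 6 members (Kcnj13, Aqp1, Otx2, Kl, Slc4a5 and Cldn2), 9 windows in all, among them 4 for Otx2. No window was at hand for Folr1, Clic6 and Enpp2. Ttr was left out of the search, so the member counts below do not cover the most abundant member. OTX2 is a homeodomain factor needed to form and keep the choroid plexus, and its core letters TAATCC were searched on both strands. They lay in 1 of 9 member windows, at an Otx2 start, against 7.06% of all 32851 windows. The letters TATAAA of a TATA box, searched after they had been noticed in these windows, lay in 4 of 9 member windows (1 each for Kcnj13, Otx2, Slc4a5 and Cldn2), against 13.6% of all windows, on either strand. The Otx2 match to TATAAA lay 192 bases before the start on the gene's strand. The Slc4a5 match lay 127 bases before the start on the other strand. Both searches are descriptions of these letters in these windows. The 250 bases before the start of Kcnj13 (chr1:87394730-87394979, minus strand) and Cldn2 (chrX:139800558-139800807, plus strand) are shown because TATAAA, in capitals, begins 29 and 35 bases before the start on the gene's own strand. The 30 bases of the Otx2 match (chr14:48665303-48665332, minus strand) are shown with the OTX core letters, here as their reverse complement, in capitals.
Kcnj13: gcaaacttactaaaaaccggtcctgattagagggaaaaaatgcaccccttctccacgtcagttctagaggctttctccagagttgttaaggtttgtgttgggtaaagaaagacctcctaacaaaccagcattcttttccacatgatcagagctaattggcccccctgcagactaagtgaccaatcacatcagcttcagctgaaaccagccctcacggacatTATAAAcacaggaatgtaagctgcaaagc
Cldn2: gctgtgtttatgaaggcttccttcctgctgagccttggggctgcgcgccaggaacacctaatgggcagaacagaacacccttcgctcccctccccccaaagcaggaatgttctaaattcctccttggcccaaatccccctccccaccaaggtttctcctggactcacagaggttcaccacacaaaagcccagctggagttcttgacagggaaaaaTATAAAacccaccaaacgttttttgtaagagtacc
Otx2: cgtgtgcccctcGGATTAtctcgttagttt

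The secreted proteins held both the most abundant member, Ttr, and one of the least abundant, Kl. Ttr (ENSMUSG00000061808.3) encodes transthyretin, the thyroid hormone and retinol carrier that choroid plexus secretes in bulk. It stood at 3.07 and 2.04 TPM in the wild type pair, at 11259 and 4.44 TPM in SOX11f/+, and at 6421 and 184 TPM in SOX11f/f replicates 1 and 2. Replicate 1 of SOX11f/+ thus lay far above its own partner, which was close to wild type. Ttr was the 5th most abundant gene of SOX11f/+ replicate 1 and the 10th of SOX11f/f replicate 1, while it ranked 11988th in SOX11f/+ replicate 2. It took 1.13% of all transcripts in the former library and 0.642% in SOX11f/f replicate 1, against 0.000444% in SOX11f/+ replicate 2. On the log2(TPM + 1) scale, which understates changes of low genes, the SOX11f/+ replicates differed by 11.02, and no other of the 14518 genes tested (mean of at least 1 TPM) differed more there. The SOX11f/f replicates differed by 5.12, and 2 genes differed more.

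Enpp2 (ENSMUSG00000022425.16, chromosome 15, 54838901 to 54952892 on GRCm38) encodes autotaxin, a secreted enzyme that makes lysophosphatidic acid and is also made by oligodendrocyte lineage cells. It stood at 48.8 and 27.0 TPM in the wild type pair, 194 and 34.3 TPM in SOX11f/+, and 105 and 91.1 TPM in SOX11f/f libraries. This was the member with the highest wild type level and the one whose SOX11f/f replicates were closest, 0.21 apart in log2. Kl (ENSMUSG00000058488.7, chromosome 5, 150952607 to 150993817) encodes klotho, a co-receptor of FGF23 that is also shed. It stood at 0.43 and 1.06 TPM in the wild type pair, 8.59 and 1.47 TPM in SOX11f/+, and 5.74 and 2.10 TPM in SOX11f/f libraries. All Kl levels were low, and its SOX11f/+ replicates were 1.96 apart in log2, the smallest such gap among the members.

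Transport genes shared the pattern of Ttr at lower levels. Folr1 (ENSMUSG00000001827.12, chromosome 7, 101858331 to 101870788), the folate receptor that carries folate into the cerebrospinal fluid, stood at 0.40 and 0.20 TPM in the wild type pair. Its level was 89.8 and 3.43 TPM in SOX11f/+ and 55.3 and 7.64 TPM in SOX11f/f replicates 1 and 2. Folr1 was thus above both wild type libraries in all 4 floxed ones, while still 4.36 apart in log2 between the SOX11f/+ replicates. Aqp1 (ENSMUSG00000004655.5, chromosome 6, 55336432 to 55348555), the water channel of the ventricular face, stood at 0.60 and 0.75 TPM in the wild type pair, 64.3 and 0.75 TPM in SOX11f/+, and 48.9 and 2.70 TPM in SOX11f/f libraries. SOX11f/+ replicate 2 and wild type replicate 2 were listed at the same Aqp1 value.

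Slc4a5 (ENSMUSG00000068323.12, chromosome 6, 83219828 to 83304945), a sodium bicarbonate cotransporter, stood at 0.14 and 0.02 TPM in the wild type pair, 12.4 and 0.03 TPM in SOX11f/+, and 9.34 and 0.97 TPM in SOX11f/f libraries. Kcnj13 (ENSMUSG00000079436.3, chromosome 1, 87386363 to 87394729), an inwardly rectifying potassium channel, stood at 0.37 and 0 TPM in the wild type pair, 26.3 and 0.16 TPM in SOX11f/+, and 24.0 and 1.87 TPM in SOX11f/f libraries. For both genes SOX11f/+ replicate 2 lay within the wild type range. The exons of Kcnj13 overlap those of Gigyf2 on the opposite strand. Gigyf2 stood at 38.5 to 46.6 TPM in the 6 libraries, and how the counting treated strand is not given in the sources used here. Exons of Otx2 and Enpp2 also overlap non-coding genes, none of which was used here. Clic6 (ENSMUSG00000022949.9, chromosome 16, 92485736 to 92541243), a chloride intracellular channel family member, stood at 0.66 and 0.27 TPM in the wild type pair, 66.3 and 0.64 TPM in SOX11f/+, and 38.1 and 4.66 TPM in SOX11f/f libraries. Its SOX11f/+ gap of 5.36 in log2 was the second widest of the members, and 3 of the 14518 genes had a wider one.

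The tight junction gene and the transcription factor gene had the same order of libraries. Cldn2 (ENSMUSG00000047230.6, chromosome X, 139800828 to 139811386) encodes claudin 2, a claudin that forms cation and water pores in leaky epithelia. It stood at 1.28 and 1.18 TPM in the wild type pair, 26.0 and 1.39 TPM in SOX11f/+, and 14.3 and 2.86 TPM in SOX11f/f libraries. Otx2 (ENSMUSG00000021848.16, chromosome 14, 48657677 to 48673819) stood at 0.50 and 0.39 TPM in the wild type pair, 52.4 and 1.23 TPM in SOX11f/+, and 29.6 and 5.08 TPM in SOX11f/f libraries. The regulator therefore took the same order of libraries as the secretory and transport genes.

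**Figure D1:**
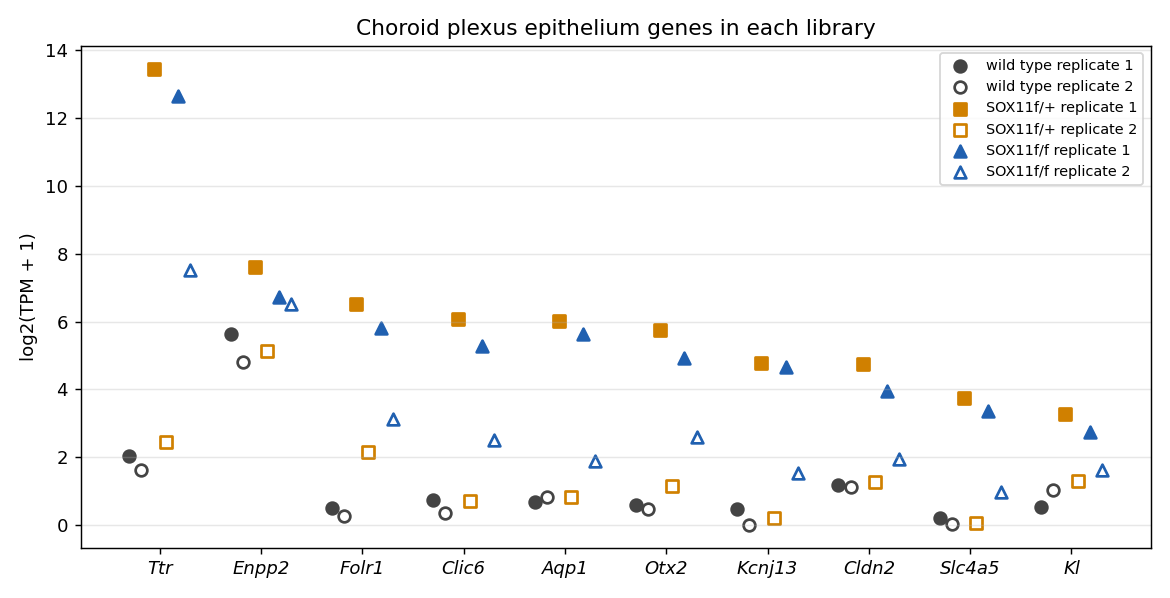
Level of the 10 choroid plexus epithelium genes on the log2(TPM + 1) scale (vertical axis) by gene (horizontal axis), 1 point per library, filled for replicate 1 and open for replicate 2. SOX11f/+ replicate 1 is the highest library and SOX11f/f replicate 1 the second for each gene, while SOX11f/+ replicate 2 lies within 0.63 of the wild type mean except for Folr1, where it is 1.77 above it.

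The libraries took the same order for all 10 members: SOX11f/+ replicate 1 was highest, SOX11f/f replicate 1 second, SOX11f/f replicate 2 next, and the remaining 3 libraries lower. This order was found for 4.96% of all genes tested. The 10 members together summed to 56.2 and 32.9 TPM in wild type, 11799 and 47.8 TPM in SOX11f/+, and 6751 and 303 TPM in SOX11f/f libraries. Ttr made up 95.4% and 95.1% of that sum in replicates 1 of SOX11f/+ and SOX11f/f, 60.8% in SOX11f/f replicate 2, and 5.46%, 6.19% and 9.29% in both wild type libraries and SOX11f/+ replicate 2. Without Ttr the other 9 members summed to 53.2, 30.9, 540, 43.4, 330 and 119 TPM in wild type, SOX11f/+ and SOX11f/f replicates 1 and 2 in turn.

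Replicate differences of at least 2 in log2, which is 4-fold on the TPM + 1 scale, were counted within each genotype, as 1 library against another and without a test. In SOX11f/+ 9 of 10 members passed this fold, all but Kl, where 0.661% of all genes did. All 9 were higher in replicate 1, as were 0.606% of all genes. In SOX11f/f 7 of 10 members passed it (all but Kl, Enpp2 and Cldn2), where 0.517% of all genes did. All 7 were higher in replicate 1, as were 0.214% of all genes. In wild type 0 of 10 passed it, where 0.193% of all genes did. The median absolute replicate difference of the members was 0.30 in wild type, 4.46 in SOX11f/+ and 2.55 in SOX11f/f, beside 0.20, 0.18 and 0.14 over all genes tested.

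Spread within genotypes was then set against that between them. The largest replicate difference exceeded the largest difference between 2 genotype means for all 10 members, and for 61.0% of all genes tested. Of the sum of squares over 6 libraries in log2(TPM + 1), the part lying between genotype means was 34.0% for Slc4a5, 34.6% for Aqp1, 35.3% for Cldn2, 37.2% for Kcnj13, 39.6% for Enpp2 and 41.7% for Clic6. It was 49.1% for Otx2, 49.99% for Ttr, 51.5% for Kl and 62.1% for Folr1. The member median of 40.7% lay below the 50.5% over all genes tested, and 2 of 10 members (Folr1 and Kl) had more between genotypes than within them, as had 50.6% of all genes. An exact one-sided permutation test over the 15 ways to split 6 libraries into 3 pairs gave p from 0.33 to 0.53 for the 10 members, where the smallest p this design allows is 0.067. Without a logarithm the part between genotypes was 26.8% to 38.1%.

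**Figure D2:**
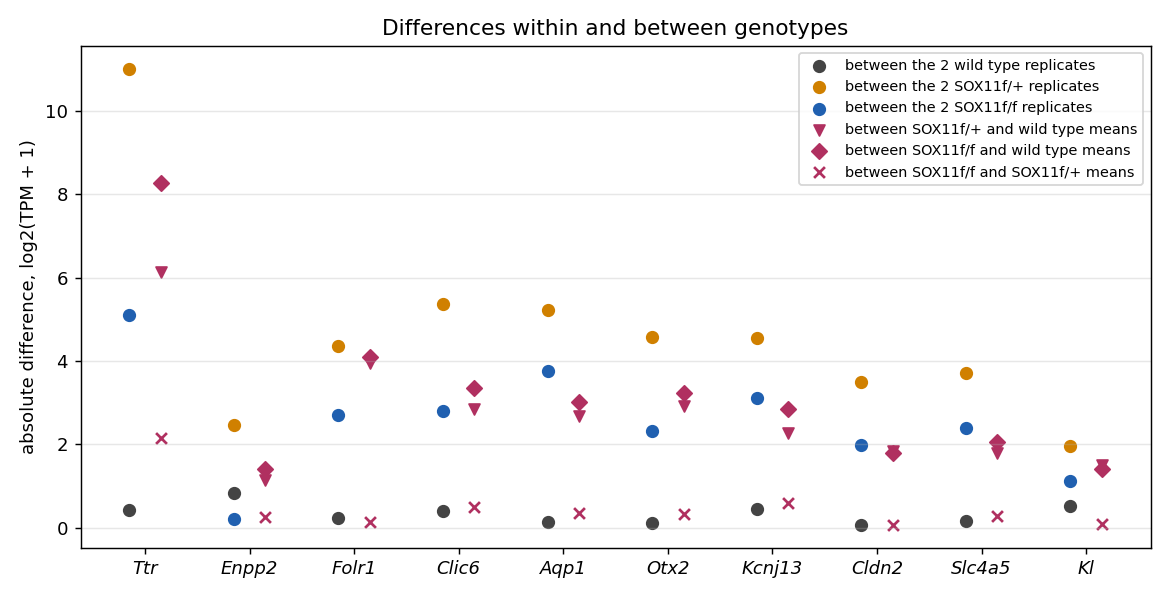
Absolute differences on the log2(TPM + 1) scale (vertical axis) for each gene (horizontal axis), as circles between the 2 replicates of a genotype and as red symbols between genotype means. For each of the 10 genes the SOX11f/+ replicates (orange circles) lie farther apart than any 2 genotype means, while the wild type replicates differ by at most 0.83.

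The fit across all genes gave no call for a member. With limma's moderated F test over the 3 genotypes, 0 of 10 members passed an adjusted p of 0.05 (0.0344% of all genes did), and the smallest limma adjusted p was 0.36, for Folr1. Folr1 alone had an unadjusted p under 0.05 in that test, beside 12.8% of all genes.

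SOX11f/+ libraries were compared with wild type to ask what 1 floxed allele goes with. Of the 10 members 0 were called higher (0.0276% of all genes) and 0 lower, although all 10 had a mean above wild type. The differences in log2(TPM + 1) ran from 1.15 (SE 0.72) for Enpp2 to 6.14 (SE 3.32) for Ttr, with a median of 2.47 beside -0.06 over all genes tested. Folr1, at 3.95 (SE 1.41), had the smallest limma adjusted p, 0.32. It was the only member under an unadjusted p of 0.05, beside 14.1% of all genes. The SOX11f/+ libraries lay wholly above wild type for 5 members (Ttr, Folr1, Otx2, Kl and Cldn2), beside 17.1% of all genes, and 0 lay wholly below, beside 28.9%.

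These values depended on which SOX11f/+ library was used. Without SOX11f/+ replicate 2, limma called 5 members higher (Ttr, Folr1, Clic6, Otx2 and Enpp2, limma adjusted p from 0.015 to 0.041), beside 2.64% of all genes, with the Ttr difference at 11.64. The F test then called 4 members, beside 2.45% of all genes. Without SOX11f/+ replicate 1 the Ttr difference was 0.63, and those of Kcnj13, Slc4a5 and Enpp2 turned to -0.01, -0.07 and -0.08. In both cases SOX11f/+ was 1 library, and a test would assume that it varies like the other genotypes. Its Ttr replicates differed by 11.02 in log2, against 0.42 in wild type and 5.12 in SOX11f/f. The differences are therefore given as values of single libraries, not as tests of the genotype.

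SOX11f/f libraries were compared with wild type in the same fit. Again 0 members were called higher (0.0207% of all genes) or lower, with all 10 means above wild type. The differences in log2(TPM + 1) ran from 1.40 (SE 0.72) for Enpp2 to 8.28 (SE 3.32) for Ttr, with a median of 2.94 beside -0.04 over all genes tested. The limma adjusted p was smallest for Folr1, at 0.21 (4.09, SE 1.41), and was 0.26 for Ttr. These were the 2 members under an unadjusted p of 0.05, beside 18.1% of all genes. Both SOX11f/f libraries lay above both wild type libraries for all 10 members, beside 23.6% of all genes, and 0 members lay wholly below, beside 30.7%.

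The libraries in the fit decided the calls in this comparison. With the 4 libraries of these genotypes alone, Ttr (limma adjusted p = 0.038) and Enpp2 (0.048) were called higher, beside 2.29% of all genes. The same 2 were called without SOX11f/+ replicate 1 (beside 2.28% of all genes) or without SOX11f/+ replicate 2 (2.34%). Replicates 1 of SOX11f/+ and SOX11f/f were also left out together, a pair picked for their Ttr level, which leaves 1 library in each floxed genotype and the spread to the wild type pair alone. The calls that follow describe those libraries and do not test the genotypes. Then 7 members (Ttr, Folr1, Kcnj13, Clic6, Aqp1, Otx2 and Enpp2) were called higher in the lone SOX11f/f library, beside 2.93% of all genes, with Ttr at 5.72. In the same setting Folr1 was the member called higher in the lone SOX11f/+ library (1.77, limma adjusted p = 0.011), beside 0.937% of all genes, and the F test called 5 members, beside 2.49% of all genes.

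SOX11f/f and SOX11f/+ libraries overlapped for all 10 members, where 15.3% of all genes lay wholly higher in SOX11f/f and 13.7% wholly lower. With limma 0 members were called higher or lower (0.00689% of all genes each), 0 had an unadjusted p under 0.05 (2.05% of all genes), and the limma adjusted p of each member was 0.9999. The differences in log2(TPM + 1) ran from -0.09 (SE 0.67) for Kl to 2.14 (SE 3.32) for Ttr. These errors are wide, so the values do not show that both genotypes were alike. Without replicates 1 of both genotypes, 1 library stands against 1, the spread comes from the wild type pair alone, and the libraries were left out for their Ttr level. The Ttr difference was then 5.09, past the threshold as were 0.0551% of all genes, and it is given as a value of 2 libraries, not as a test of the genotypes. Without SOX11f/+ replicate 1 alone, 0 members were called higher, beside 0.0138% of all genes.

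The members did not keep 1 ratio to each other across libraries. SOX11f/+ replicate 1 exceeded SOX11f/f replicate 1 by 1.75-fold for Ttr, and by 1.09-fold (Kcnj13) to 1.84-fold (Enpp2) for the other 9, with a median of 1.62-fold. Of the transport genes, Kcnj13, Aqp1 and Slc4a5 had the smallest factors, at 1.09, 1.31 and 1.33, and these differences between members were not tested. SOX11f/+ replicate 1 exceeded SOX11f/f replicate 2 by 61.1-fold for Ttr but by 2.13-fold (Enpp2) to 23.8-fold (Aqp1) for the others, with a median of 11.8-fold.

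With the wild type mean subtracted, SOX11f/f replicate 2 held 1.61% of the Ttr of SOX11f/+ replicate 1, 3.18% of its Aqp1, 6.38% of its Clic6, 8.20% of its Folr1 and 8.92% of its Otx2. It held 17.3% of its Kl and 34.1% of its Enpp2. Relative to SOX11f/+ replicate 1, that library was thus relatively poor in Ttr and relatively rich in Kl and Enpp2. Per 1000 TPM of Ttr, Folr1 stood at 7.98 TPM in SOX11f/+ replicate 1, 8.61 in SOX11f/f replicate 1 and 41.5 in SOX11f/f replicate 2. Otx2 stood at 4.65, 4.61 and 27.6 TPM per 1000 TPM of Ttr in the same libraries. SOX11f/+ replicate 2 held 0.0168% of the Ttr above wild type, 3.50% of the Folr1 and 9.24% of the Kl, and for Kcnj13, Slc4a5 and Enpp2 it lay below the wild type mean.

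**Figure D3:**
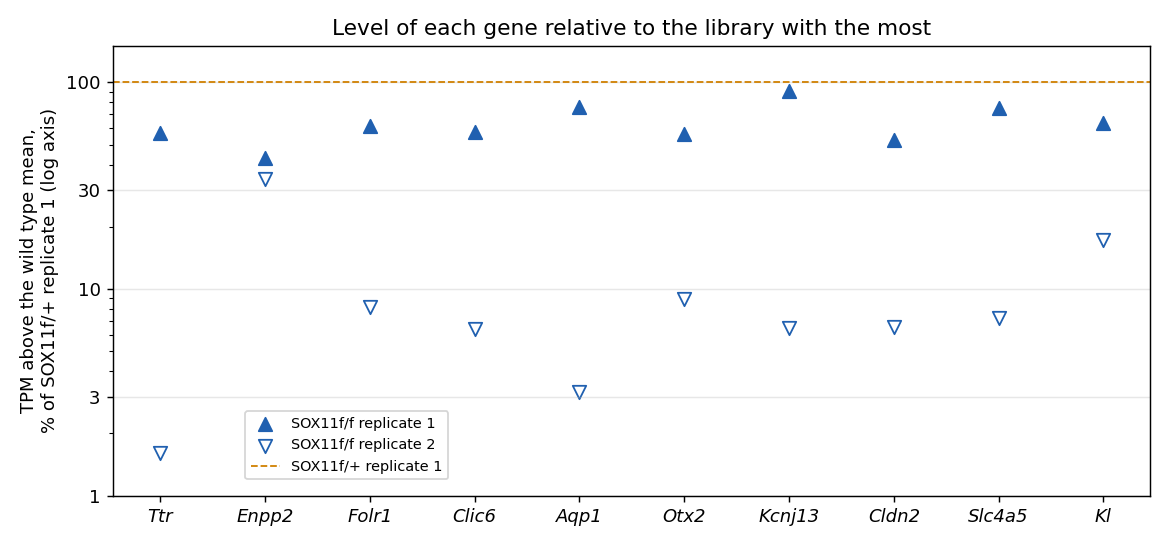
TPM above the wild type mean in both SOX11f/f libraries, as a percent of that in SOX11f/+ replicate 1 (vertical log axis), by gene (horizontal axis). Replicate 1 (filled) lies between 43.1% and 91.3% for each gene, while replicate 2 (open) runs from 1.61% for Ttr to 34.1% for Enpp2.

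Other genes of choroid plexus epithelium were read from a list of 50, of which 49 were in the table and 47 were tested. With limma 0 of 47 were called in any of the 3 comparisons. Their median differences from wild type in log2(TPM + 1) were 0.91 in SOX11f/+ and 0.85 in SOX11f/f, and the median part of their variation between genotypes was 41.97%. SOX11f/+ replicate 1 was the highest library for 37 of 49, as it was for 18.6% of all genes tested. The order of the members was found for 23 of 49, beside 4.96% of all genes. By abundance the leading genes of the list were Cst3, a secreted protease inhibitor (1030 to 1517 TPM), Bsg, a transporter chaperone (547 to 811), Atp1b1, a sodium pump subunit (176 to 390) and Igfbp2, a secreted IGF-binding protein (129 to 457). Igfbp2 and Bsg showed the order of the members, while Cst3 and Atp1b1 did not. These abundant genes are made by many brain cells.

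Further genes of the list are named here after their values were seen. Kcne2, a potassium channel subunit, stood at 0.22 and 0.05 TPM in the wild type pair, 64.5 and 0.30 TPM in SOX11f/+, and 38.7 and 0.89 TPM in SOX11f/f libraries. Its 72.4-fold gap between SOX11f/+ replicate 1 and SOX11f/f replicate 2 was wider than that of Ttr. Calml4, a calmodulin-like protein gene, stood at 0.85 and 0.29 TPM in the wild type pair, 50.4 and 4.49 TPM in SOX11f/+, and 29.2 and 14.3 TPM in SOX11f/f libraries, with a far smaller gap between SOX11f/+ replicate 1 and SOX11f/f replicate 2. Tmem72, Slc12a2 and Slc31a1 varied less among the libraries, at 12.9 to 25.2, 17.9 to 29.7 and 32.7 to 50.5 TPM. Each was highest in SOX11f/+ replicate 1, as the members were, but none showed their full order. Igf2, which meninges and vessels also make, was instead highest in SOX11f/f replicate 2, at 269 TPM, and stood at 52.4 TPM in SOX11f/f replicate 1.

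A search among tested genes with a range of at least 2 in log2 asked which profiles were most like that of the members. Each profile was rescaled from 0 in its lowest library to 1 in its highest, and likeness was the mean absolute difference over 6 libraries from the members' mean profile. That mean profile stood at 0.061 and 0.022 in wild type, 1 and 0.11 in SOX11f/+, and 0.86 and 0.38 in SOX11f/f libraries. Among the 475 genes compared that are not members, the 10 closest were Wfikkn2, Slc2a12, Fam50b, Car14, Krt18, Fam84b, Ace, Trpm3, Ppp1r3b and Kcne2, at 0.026 to 0.060. Of these, 6 were in the list of other choroid plexus genes, as were 24 of the 475. Wfikkn2, a secreted protein with protease inhibitor domains, stood at 1.61 and 1.01 TPM in the wild type pair, 54.3 and 1.15 TPM in SOX11f/+, and 36.2 and 6.21 TPM in SOX11f/f libraries. Slc2a12, a glucose transporter outside the list, stood at 1.47 and 1.14, 31.4 and 1.90, and 16.1 and 4.10 TPM in the same order. Among the members, Clic6 was closest to the mean profile (0.013) and Enpp2 farthest (0.11).

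A list of genes of multiciliated ependyma, whose cells line the ventricles and beat cilia, differed from the members in its median in SOX11f/+ replicate 2. Which cells made the RNA of this list was not tested. The list of 33 measured genes summed to 164 and 121 TPM in wild type, 1089 and 393 TPM in SOX11f/+, and 889 and 618 TPM in SOX11f/f libraries. Relative to the wild type mean, its median in log2(TPM + 1) stood at 3.42 and 1.71 in SOX11f/+ and at 3.07 and 2.42 in SOX11f/f replicates 1 and 2. The 10 choroid plexus members stood at 4.88 and 0.14 in SOX11f/+ and at 4.41 and 1.30 in SOX11f/f. The median part of variation between genotypes was 85.4% for the ciliated list against 40.7% for the members. This difference between lists was not tested.

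Foxj1, the regulator of motile cilia, stood at 3 and 3.14 TPM in the wild type pair, 131 and 26.4 TPM in SOX11f/+, and 90.0 and 56.7 TPM in SOX11f/f libraries. Lrrc23 and Dynlrb2, both parts of the ciliary axoneme machinery, reached 20.6 and 24.0 TPM in SOX11f/+ replicate 2 from at most 2.32 TPM in wild type, and Rsph9, a radial spoke gene, lay between 22.7 and 50.9 TPM in all libraries. With limma 2 of 32 ciliated genes tested (Ccdc153 and Tmem212) were called higher in each floxed genotype against wild type, beside 0.0276% of all genes in SOX11f/+ and 0.0207% in SOX11f/f, and 0 were called lower. The ciliated list was, like the members, highest in SOX11f/+ replicate 1 for 28 of 33 genes, beside 18.6% of all genes tested. The order of the members was found for 26 of 33, beside 4.96% of all genes. Its part in the choroid plexus values was not tested.

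Genes of the choroid plaque and cortical hem, the midline source from which choroid plexus arises, were another list of 20. Of 18 tested, 0 were called in any comparison, and the list summed to 399 to 571 TPM in wild type, 431 to 525 TPM in SOX11f/+ and 488 to 629 TPM in SOX11f/f. The most abundant were Id3 (166 to 232 TPM) and Id1 (85.9 to 121), both targets of BMP signalling, and the zinc finger genes Zic1 (35.3 to 71.8) and Zic2 (22.9 to 47.9). SOX11f/f replicate 2 was the highest library for 10 of the 20 genes, beside 17.4% of all genes tested. The order of the members was found for 2 of 20 (Lmx1a and Msx1), beside 4.96% of all genes. Bmp4, named after its values were seen, stood at 0.86 and 1.18 TPM in the wild type pair, 5.67 and 0.97 TPM in SOX11f/+ and 5.61 and 5.62 TPM in SOX11f/f libraries. Bmp4 was therefore as high in SOX11f/f replicate 2 as in the 2 libraries richest in Ttr. Msx1, also named after its values were seen, stood at 3.75 and 2.59 TPM in the wild type pair. It reached 37.9 and 6.9 TPM in SOX11f/+ and 28.8 and 17.7 TPM in SOX11f/f libraries. Wnt5a, likewise named after its values were seen, went the other way and was lower in each floxed library than in wild type. Its level was 43.3 and 32.6 TPM in the wild type pair, 24.2 and 26.4 TPM in SOX11f/+ and 23.1 and 30.45 TPM in SOX11f/f libraries. Of the 18 tested, 12 had a mean above wild type in SOX11f/+ and 15 in SOX11f/f. The median differences were 0.28 and 0.70 in log2(TPM + 1), beside -0.06 and -0.04 over all genes tested.

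The choroid plexus core and the meninges were read from lists of their own. The stroma and meninges list of 20 genes summed to 591 and 346 TPM in wild type, 446 and 430 TPM in SOX11f/+, and 253 and 781 TPM in SOX11f/f libraries, with 0 genes at 0. It was thus lowest in SOX11f/f replicate 1, which had the second highest Ttr, and 0 of its 20 genes showed the order of the members, beside 4.96% of all genes. Its most abundant genes were Cxcl12 (61.5 to 243 TPM), Igfbp4 (57.8 to 88.1), Pdgfra (26.8 to 48.7) and Dcn (15.7 to 68.2). The endothelial list of 12 genes summed to 189 to 272 TPM in wild type, 229 to 241 TPM in SOX11f/+ and 168 to 315 TPM in SOX11f/f, led by Cldn5, Slc2a1, Esam and Kdr. SOX11f/+ replicate 1 was the highest library for 4 of the 12, SOX11f/f replicate 2 for 5 and wild type replicate 1 for 3. Over all genes tested these shares were 18.6%, 17.4% and 41.0%. The order of the members was found for 1 of the 12, Esm1, named after its values were seen, which stood at 0.11 to 0.62 TPM.

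Most genes of a microglia and macrophage list were highest in SOX11f/+ replicate 1. The 15 genes summed to 259 and 291 TPM in wild type, 595 and 395 TPM in SOX11f/+, and 463 and 518 TPM in SOX11f/f libraries. Of the list, 11 of 15 were highest in SOX11f/+ replicate 1, beside 18.6% of all genes tested. The other 4 (P2ry12, Mrc1, Pf4 and Lyve1, named after their values were seen) were highest in SOX11f/f replicate 2, beside 17.4%. The order of the members was found for 3 of 15, beside 4.96% of all genes. The median part of variation between genotypes was 40.7% for the members against 78.0% for this list, a difference that was not tested. C1qb, C1qa and C1qc, parts of complement C1q, were among its most abundant genes, with C1qb at 32.8 to 85.4 TPM. With limma 0 of 15 were called in any comparison, 0 were listed at 0, and their part in the choroid plexus values was not tested. Erythroid genes, led by Hba-a1, Hba-a2, Hbb-bs and Hbb-bt, summed to 292 to 774 TPM in wild type and 400 to 591 TPM in SOX11f/+ libraries, with 501 and 522 TPM in SOX11f/f.

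Other tissues that make transthyretin were checked by their own markers. The liver and yolk sac list of 15 genes summed to 7.91 to 16.9 TPM over the 6 libraries, its most abundant genes being Amn, Apoa2, Alb and Apoa1. Alb, albumin, stood at 0.17 to 2.54 TPM. In the retinal pigment epithelium list Rpe65, named after its values were seen, was listed at 0 in all 6 libraries, and the summed 61.3 to 92.0 TPM was mostly Rlbp1, which glia also express (52.6 to 87.6 TPM), followed by Mitf, Dct and Best1. Mitf, a transcription factor of pigment cells, stood at 1.18 and 0.87 TPM in the wild type pair, 6.03 and 1.23 TPM in SOX11f/+ and 4.27 and 2.56 TPM in SOX11f/f libraries, which is the order of the members. SOX11f/+ replicate 1 was the highest library for 4 of the 10 genes of that list and for 0 of the 15 of the liver and yolk sac list. Over all genes tested it was the highest for 18.6%. The part of these tissues in the choroid plexus values was not tested.

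**Figure D4:**
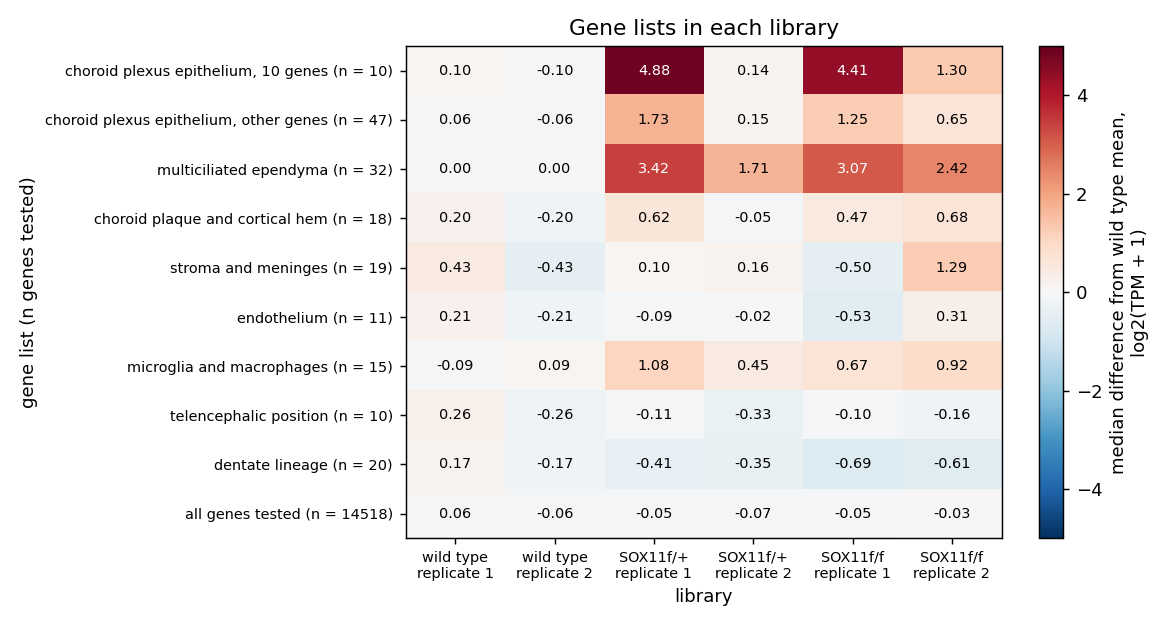
Median difference from the wild type mean on the log2(TPM + 1) scale (colour and number) for each gene list (rows, with the number of genes tested) in each library (columns). In replicates 1 of SOX11f/+ and SOX11f/f the 10 choroid plexus genes (4.88 and 4.41) and the ciliated list (3.42 and 3.07) are the highest rows, and in SOX11f/+ replicate 2 they stand at 0.14 and 1.71.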

How the data were processed

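Gene-level TPM values for 6 libraries were deposited by the authors as 1 table. TopHat 2.0.11 (alignment, build mm10) and Cufflinks 2.2.1 (differential expression, RefSeq transcripts) are named per the labels, and FastQC and RSEM per the submitters' processing notes. Which of them made the TPM is unclear. Treatment of strand and of multiply mapped reads is not given in the sources used here. Depth cannot be read from TPM. Counting intervals and floors were therefore not computed, and precision rests on 2 libraries per genotype. Values were used as log2(TPM + 1). The 14518 genes whose mean reached 1 TPM were fitted with limma 3.58.1 in R 4.3.3 (a term per genotype, all 6 libraries, eBayes with trend, 3 residual degrees of freedom) and p-values were adjusted by Benjamini-Hochberg over all of them at 0.05. The fit was tested on simulated data. Members, 12 gene lists and alternatives were chosen with earlier results of these data known. Named genes are all members, the 4 most abundant genes of each list and the 10 closest profiles. Of the genes this rule names, 2 are not reported here. Of the genes the text names outside this rule, Sox11 and the stage markers check the labels and Gigyf2 overlaps a member. The others were chosen after their values were seen. They are Calml4, Tmem72, Slc12a2, Slc31a1, Igf2, Bmp4, Lmx1a, Msx1, Wnt5a, Ccdc153, Tmem212, Esm1, Rpe65, P2ry12, Mrc1, Pf4 and Lyve1. Positions come from GENCODE vM21 on GRCm38. Alternatives covered pseudocount, filter, scaling, eBayes trend, replicate block and libraries left out. No per-sample column was left out.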

Additional observations from a re-analysis of the deposited data

How the results depend on the processing

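With limma, 5 genes passed the F test, 5 SOX11f/+ against wild type, 6 SOX11f/f against wild type and 2 SOX11f/f against SOX11f/+. A pseudocount of 0.1 gave 51, 49 and 149 in the first 3 and put 1 member at 4-fold between wild type replicates. A pseudocount of 5 gave 3 for SOX11f/+ against wild type. No filter gave 3, 1, 3 and 1, and eBayes without a trend gave 1 for SOX11f/f against SOX11f/+. The labels do not say whether replicate numbers pair the samples. Replicate differences correlated at 0.21 between wild type and SOX11f/+ and at -0.09 between wild type and SOX11f/f. Between SOX11f/+ and SOX11f/f they correlated at 0.35, which does not settle the pairing. With the replicate block 20, 9 and 283 genes passed in the first 3, and 0 members. Wild type and SOX11f/f libraries alone gave 393 genes and 2 members. Leaving out 1 library gave 3 to 356, 3 to 397, 3 to 397 and 1 to 5 genes, and 0 to 4, 0 to 5, 0 to 2 and 0 members. Without replicates 1 of both floxed genotypes 361, 152, 491 and 12 genes and 5, 1, 7 and 1 members passed. Where 1 library stood for a genotype, these counts do not test that genotype. The cause was not tested.

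Some members changed sign. For SOX11f/f against SOX11f/+, Cldn2 was 0.065 with a pseudocount of 0.1, and Folr1 was -0.035, Otx2 -0.018 and Slc4a5 -0.017 with 5. Without replicates 1 of both floxed genotypes Kl was 0.33 and Cldn2 0.69, and against wild type SOX11f/+ was -0.013 for Kcnj13, -0.066 for Slc4a5 and -0.084 for Enpp2. Leaving out 1 library, SOX11f/+ against wild type ran from -0.013 to 4.54 for Kcnj13, -0.066 to 3.64 for Slc4a5 and -0.084 to 2.38 for Enpp2. SOX11f/f against SOX11f/+ then ran from -3.37 to 7.65 for Ttr, -2.04 to 2.32 for Folr1, -1.69 to 2.87 for Kcnj13, -2.18 to 3.18 for Clic6, -2.26 to 2.96 for Aqp1, -1.97 to 2.61 for Otx2, -1.07 to 0.89 for Kl, -1.57 to 2.13 for Slc4a5, -0.98 to 1.49 for Enpp2 and -1.81 to 1.69 for Cldn2. With Ttr alone as the reference profile, 4 of the 10 closest genes were shared. Upper-quartile scaling shifted wild type replicate 1 by -0.10 in log2 and the other libraries by at most 0.04. Read depth is unknown for TPM, so no limit from depth was computed.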
